A study of Homo sapiens with 3 samples.

Results

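The genes of glycolysis and of the transcriptional response to low oxygen were followed during knockdown of HRD1 in human cells that the labels name LoVo, an established line from a colorectal carcinoma. HRD1, encoded by SYVN1, is a ubiquitin ligase that marks misfolded proteins of the endoplasmic reticulum for degradation. The set was chosen by gene name and holds 39 of the 58243 genes in each deposited table, made up of 17 glycolytic enzymes, 6 glucose and lactate transporters and metabolic switches, 15 targets of hypoxia-inducible factor (HIF) outside glycolysis, and HIF1A itself. All groups carried the same Tet-On short hairpin RNA against HRD1, and the 3 libraries came from cells given 1 µg/ml doxycycline for 0, 3 or 5 days. There was 1 library per day, so no difference has a replicate check, no test was possible, and every ratio compares libraries rather than conditions. The labels do not say whether the line is 1 clone, and no library with doxycycline and a control hairpin was analysed here, so time in doxycycline and knockdown cannot be told apart.

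Glycolysis splits glucose into pyruvate in the cytosol, and lactate dehydrogenase turns pyruvate into lactate when mitochondria do not take it up. HIF is a pair of proteins, an oxygen-labile alpha subunit such as HIF1A and its stable partner ARNT. In oxygen, the EGLN prolyl hydroxylases mark the alpha subunit for destruction by the VHL ubiquitin ligase, so its activity is set mostly at the protein level. When oxygen falls, HIF binds the core motif of the hypoxia response element and raises nearly every glycolytic enzyme together with genes for angiogenesis, mitophagy, matrix hydroxylation and its own feedback hydroxylases. The cells here were cultured with 5% CO2 and the labels mention no hypoxia.

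Levels below are reads of a gene scaled to a common library size (CPM), normalised by the trimmed mean of M-values. Square brackets give 95% exact intervals, which cover counting error only. A gene was counted as higher or lower where the ratio was at least 1.2-fold (or, in a stricter count, 1.5-fold) with an interval that excluded 1, over the 12593 genes that averaged 50 reads or more. SYVN1 was at 56.1, 30.4 and 27.0 CPM at day 0, day 3 and day 5, ratios of 0.543 [0.493 to 0.597] and 0.482 [0.438 to 0.529] over day 0. The 3 libraries held 21308785 to 25754188 gene reads, and 3 reads corresponded to 0.114 to 0.140 CPM. The labelled colon epithelial origin was not borne out by most of its markers. Of 10 colon epithelial markers 3 reached 1 TPM (the deposited abundance per transcript length), the keratins KRT8, KRT18 and KRT19, at 415 to 483, 727 to 738 and 137 to 194 TPM. CDX2 had 0 reads in every library, EPCAM was at 0.656 to 0.742 TPM and CDH1 at 0.0605 to 0.241 TPM. KRT20, VIL1, CEACAM5 and LGALS4 also stayed under 1 TPM in every library. Of 8 mesenchymal markers 5 reached 1 TPM in each library, led by the filament gene VIM at 3588 to 4130 TPM (57.1% of its reads were unique), while COL1A2, COL3A1 and THY1 stayed under 1 TPM. Of 10 liver markers 7, 4 and 0 were at 0 reads at day 0, day 3 and day 5, and 1, 1 and 8 reached 1 TPM, with summed levels of 799, 666 and 731 TPM. Nearly all of each sum was SERPINA1, at 799, 664 and 693 TPM. ALB and FGB had 0 reads at day 0 and day 3, and 114 and 122 reads at day 5. Apart from SERPINA1, the liver markers thus appeared mainly in the day 5 library. That library enters every day 5 ratio below, and the part of these markers in those ratios was not tested. In bulk RNA, fewer cells of a type and less RNA per cell cannot be told apart.

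Glycolytic enzymes and HIF targets outside glycolysis were both mostly higher at day 3. At day 5 their medians differed, more so before than after correction for exon length and GC content (0.01 and 0.23 against 0.09 and 0.21), and the difference could not be tested. All 17 glycolytic enzymes had a day 3 ratio above 1, with a median log2 ratio of 0.30, except that PFKM and PFKP fell on the other side of 1 with plain library totals and with the authors' TPM, and PFKM also with exon-exon reads. At day 5 the enzymes were on balance close to where they had started, with a median log2 ratio of 0.01 over day 0 and 9 above and 8 below it, or 13 above and 4 below after correction for exon length and GC content. Of the 14 measured HIF targets outside glycolysis, 13 were above day 0 at day 3 (10 on the authors' TPM, where ADM and P4HA2 were below, and EGLN1 was below on exon-exon reads) and 11 at day 5 (EGLN3 was below on exon-exon reads). Their median log2 ratios were 0.18 and 0.23. Over all 12593 genes the median log2 ratio was 0.01 at both times. From day 3 to day 5 the enzymes had a median log2 ratio of -0.19 and the HIF targets 0.05, beside 0.00 for all genes. Each library enters 2 of these comparisons, so the values are set side by side and are not independent of each other.

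**Figure D1:**
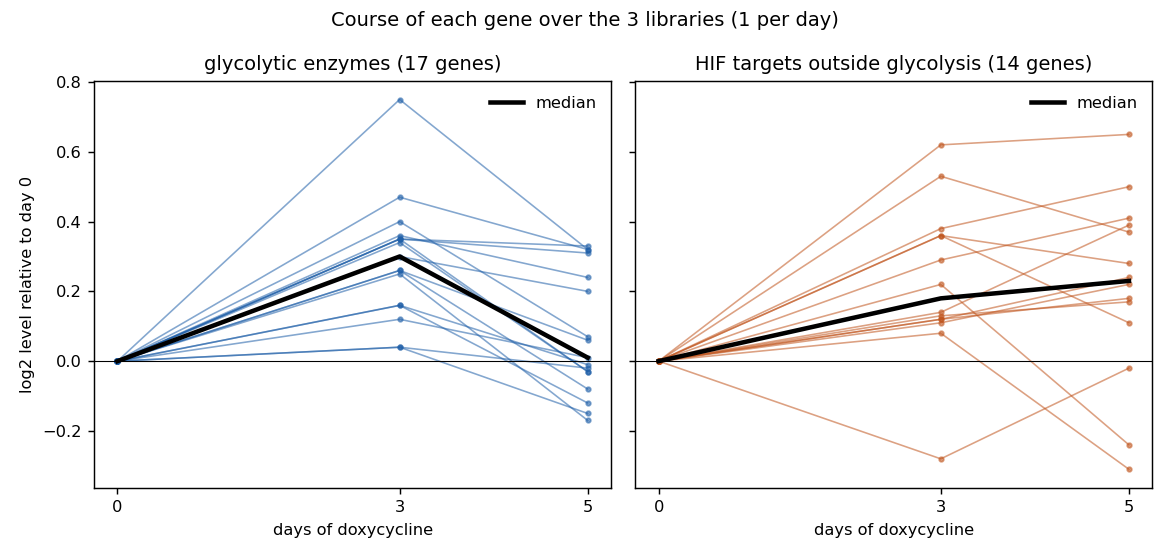
Log2 level of each measured gene relative to day 0 against days of doxycycline, 1 library per day. Thin lines are genes and the thick black line is their median. In the left panel the 17 glycolytic enzymes peak at day 3 with a median of 0.30 and end at 0.01. On plain library totals or TPM, PFKM and PFKP lie below 0 at day 3. With these scalings HK2, PFKM and PGK1 are higher at day 5 than at day 3, as is PGAM1 on TPM. In the right panel the 14 HIF targets outside glycolysis end at a median of 0.23.

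The promoters of the members were read for the core of the hypoxia response element, as ACGTG or GCGTG on either strand, in windows from 250 bases before to 50 after each start listed by RefSeq on GRCh38.p14. CACGTG is a palindrome that holds ACGTG on both strands and counted as 2 matches. Windows were found for 34 of the 39 members, 64 windows in all. ACGTG was in at least 1 window of 21 of the 34 genes (61.8%), beside 24.9% of all 27305 genes with a window and 33.3% of the 9428 that also averaged 50 reads or more. Either motif was in 31 of the 34 genes (91.2%), beside 52.4% and 71.3%. GCGTG alone was in 61.8% of the genes, beside 40.6% and 59.3%, and per window in 42.2%, beside 36.5% and 49%. By group, ACGTG was found in 11 of 17 glycolytic enzymes (64.7%) and 7 of 11 HIF targets outside glycolysis (63.6%). A gene with several listed starts has more windows and more room for a match: per window, either motif was in 67.2% for the members and in 48.4% and 61.3% for the other sets. A match is a string of letters and says nothing of binding in these cells.

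The promoters of 4 members are shown because they belong to the members that stood out: among members with 1 listed start, those with the highest day 3 ratio in each group (ALDOC, PFKFB4 and BNIP3) and the one with the lowest day 5 ratio (P4HA2). Each line gives the 250 bases before the start, 5′ to 3′ on the gene's strand, each on the minus strand, with the matches in capitals (CACGC and CACGT are GCGTG and ACGTG read on the other strand). Their positions are ALDOC chr17:28576896-28577145, PFKFB4 chr3:48556804-48557053, BNIP3 chr10:131981924-131982173 and P4HA2 chr5:132227092-132227341.
ALDOC: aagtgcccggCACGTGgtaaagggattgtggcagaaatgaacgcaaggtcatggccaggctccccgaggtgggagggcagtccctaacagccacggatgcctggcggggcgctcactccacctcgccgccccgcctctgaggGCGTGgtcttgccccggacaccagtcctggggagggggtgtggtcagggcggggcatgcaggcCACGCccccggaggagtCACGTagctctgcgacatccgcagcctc
PFKFB4: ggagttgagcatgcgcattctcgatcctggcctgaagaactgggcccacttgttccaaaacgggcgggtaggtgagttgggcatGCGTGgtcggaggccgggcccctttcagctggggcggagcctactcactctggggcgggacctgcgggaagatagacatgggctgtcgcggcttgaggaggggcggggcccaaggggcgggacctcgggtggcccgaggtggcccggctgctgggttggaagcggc
BNIP3: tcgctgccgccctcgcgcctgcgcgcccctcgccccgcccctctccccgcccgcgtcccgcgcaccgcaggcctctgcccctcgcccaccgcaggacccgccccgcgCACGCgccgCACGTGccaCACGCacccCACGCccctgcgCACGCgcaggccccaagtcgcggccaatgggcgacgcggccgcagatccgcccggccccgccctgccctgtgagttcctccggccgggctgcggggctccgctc
P4HA2: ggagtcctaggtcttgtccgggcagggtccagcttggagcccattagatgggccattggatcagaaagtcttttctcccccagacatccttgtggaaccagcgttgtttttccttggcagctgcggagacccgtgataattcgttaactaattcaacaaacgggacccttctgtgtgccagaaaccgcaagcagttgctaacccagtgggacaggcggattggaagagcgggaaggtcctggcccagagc
The BNIP3 stretch held 6 matches in a single cluster, and the ALDOC stretch held 5, with its palindrome at the far upstream end. PFKFB4 had 1 match and P4HA2 had 0. These 4 genes were picked by their ratios, so the counts cannot show whether matches go with the ratios, and this was not tested.

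The glycolytic enzymes made up a sizeable part of the mRNA of these cells. They took 2.06%, 2.4% and 2.06% of all gene reads at day 0, day 3 and day 5, whereas the 15 HIF targets outside glycolysis took 0.0678%, 0.0766% and 0.0815%. GAPDH, the dehydrogenase of the middle of the pathway, stood per length at 9639, 11214 and 9349 TPM and ranked 1, 1 and 3 among all genes. Among the enzymes ENO1 followed at 3778, 4137 and 3537 TPM, ahead of TPI1 and PKM, which were close to each other and changed places (1783, 2146 and 1857 TPM against 1800.2, 1843 and 1639.9). The lowest enzyme was ENO2 at 44.9, 57.4 and 55.3 TPM. The HIF targets reached from ERO1A at 103, 103 and 119 TPM down to CA9, the carbonic anhydrase often used as a hypoxia marker, which had 4, 6 and 8 reads (0.364, 0.671 and 0.791 TPM) and was too low to compare.

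**Figure D2:**
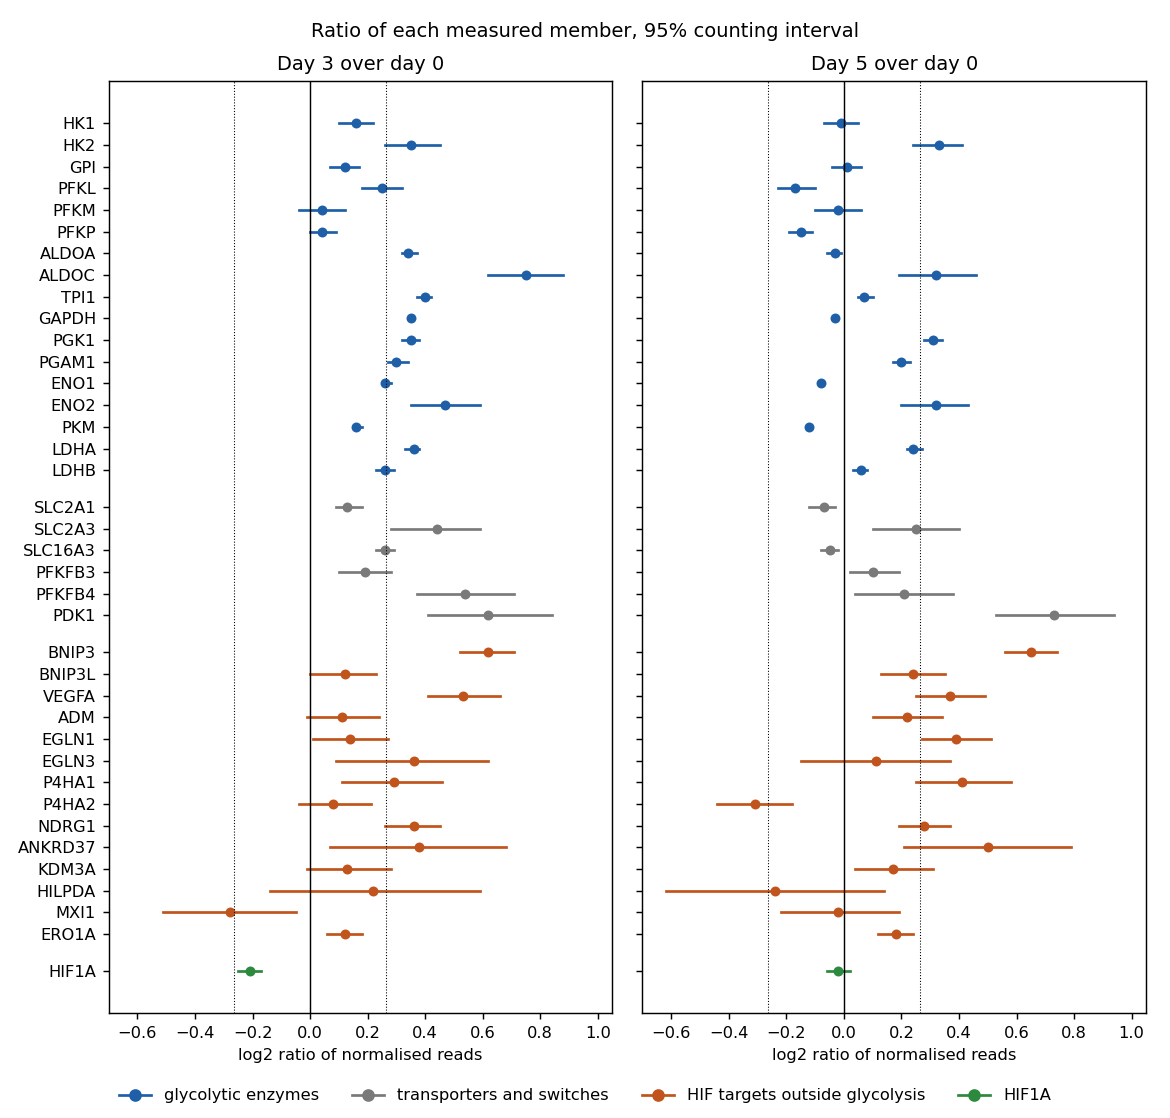
Log2 ratio of TMM-normalised reads for each of the 38 measured members at day 3 (left) and day 5 (right) over day 0, with 95% counting intervals, coloured by group; dotted lines mark 1.2-fold. ALDOC, PDK1 and BNIP3 pass 1.5-fold at day 3, and PDK1 and BNIP3 at day 5.

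The steps of upper glycolysis differed among themselves at day 3. HK1, the housekeeping hexokinase, was at 212, 237 and 211 CPM, and HK2, its inducible counterpart, at 79.1, 101 and 99.1 CPM. HK2 was 1.28-fold higher [1.2 to 1.36] at day 3 and still 1.25-fold higher [1.18 to 1.33] at day 5, while HK1 was back at 0.992 [0.954 to 1.03]. GPI, which interconverts the hexose phosphates, was at 284, 309 and 286 CPM, with 75.1% of its reads uniquely placed. Among the phosphofructokinases, which catalyse the committed step, PFKP and PFKM had the day 3 ratios nearest 1 of all enzymes: PFKP was at 397, 409 and 359 CPM and PFKM at 116, 119 and 114. PFKL reached 189 CPM at day 3 from 159 and was at 142 at day 5, a day 5 ratio of 0.892 [0.851 to 0.934]. Among the aldolases, which cleave the hexose, ALDOA was at 1133, 1437 and 1108 CPM, 1.27-fold higher [1.25 to 1.29] at day 3 and 0.978 [0.962 to 0.995] of day 0 at day 5. ALDOC (chromosome 17, 28573115 to 28577264, minus strand, GRCh38) was the enzyme with the largest ratio. It stood at 33.7, 56.7 and 42.2 CPM, which is 1.68-fold [1.53 to 1.85] at day 3 and 1.25-fold [1.14 to 1.38] at day 5, and 86.1% of its reads were uniquely placed.

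In lower glycolysis, from triose phosphate to lactate, all enzymes were higher at day 3 under every scaling tried. TPI1, the triose phosphate isomerase, was at 1108, 1459 and 1164 CPM, 1.32-fold [1.30 to 1.34] at day 3. GAPDH (chromosome 12, 6533927 to 6538374, plus strand) was at 6581, 8391 and 6445 CPM, 1.28-fold [1.27 to 1.28] at day 3 and 0.979 [0.972 to 0.986] at day 5. PGK1, which makes the first ATP of the pathway, was at 686, 875 and 851 CPM, at 1.27-fold [1.25 to 1.30] and 1.24-fold [1.21 to 1.27]. GAPDH and PGK1 catalyse consecutive steps and had nearly the same day 3 ratio, yet at day 5 GAPDH was close to day 0 and PGK1 was not. PGAM1, the mutase, was at 595, 735 and 684 CPM, and 49.3% of its reads were unique, so copies elsewhere in the genome can share them. ENO1, the main enolase, was at 3427, 4112 and 3243 CPM, 1.2-fold [1.19 to 1.21] and 0.946 [0.937 to 0.956]. ENO2 was at 46.2, 64.0 and 57.6 CPM, 1.39-fold [1.28 to 1.51] at day 3 and 1.25-fold [1.15 to 1.35] at day 5. PKM, the pyruvate kinase, was at 3549, 3975 and 3265 CPM and at day 5 was 0.920 [0.911 to 0.929] of day 0. LDHA was at 1021, 1308 and 1208 CPM, 1.28-fold [1.26 to 1.30] and 1.18-fold [1.16 to 1.2], and LDHB at 878, 1050.3 and 912 CPM, 1.2-fold [1.17 to 1.22] and 1.04-fold [1.02 to 1.06].

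In counts, 9 of the 17 glycolytic enzymes were at least 1.2-fold higher at day 3 (HK2, ALDOA, ALDOC, TPI1, GAPDH, PGK1, PGAM1, ENO2 and LDHA), where 9.98% of all genes were, and 0 were lower, where 10.7% of all genes were. ENO1 and LDHB lay just under the threshold. Counts on the authors' TPM used the 1.2-fold cut-off alone, with no interval. The count was then 3, and the shares of all genes were 5.07% higher and 20.8% lower. With plain library totals it was 8, beside 5.32% and 16.2%. ALDOC was the 1 enzyme past 1.5-fold. Over all 38 measured members, 3 were 1.5-fold higher at day 3, beside 1.29% of all genes, and 0 lower, beside 2.53%. At day 5, 2 were higher, beside 1.76%, and 0 lower, beside 1.28%, and from day 3 to day 5 none passed in either direction, beside 2.29% and 0.961%. At 1.2-fold, the count of enzymes at day 5 was 4 (HK2, ALDOC, PGK1 and ENO2), beside 9.43% of all genes, and 0 were lower, beside 7.81%. From day 3 to day 5 all 17 ratios were below 1, except for HK2, PFKM and PGK1 on plain library totals, PFKM and PGK1 on exon-exon reads, HK2 (level) on exon reads, HK2, PFKM, PGK1, PGAM1 and LDHA (level) on the authors' TPM, and HK2 (level) and PGAM1 after correction for exon length and GC content. The count lower by at least 1.2-fold was 7 (PFKL, ALDOA, ALDOC, TPI1, GAPDH, ENO1 and PKM), where 10.9% of all genes were. That count was 2 on the authors' TPM, where 23.1% of all genes were higher and 5.66% lower, and 5 with plain library totals, with 19.7% and 5.64%.

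Ratios between isozymes of 1 step do not depend on how libraries are scaled. In 4 steps the balance of the isozymes differed from day 0 at both later times beyond counting error. HK2 made up 26.7%, 29.6% and 31.7% of hexokinase TPM at day 0, day 3 and day 5, and its reads relative to HK1 were 1.14-fold [1.06 to 1.23] and 1.26-fold [1.17 to 1.36] those of day 0. LDHA, whose tetramer favours lactate formation, made up 36.0%, 37.5% and 39% of lactate dehydrogenase TPM, and relative to LDHB its reads were 1.07-fold [1.04 to 1.10] and 1.14-fold [1.11 to 1.17]. That share depends on exon lengths of 6210 bases for LDHA and 2983 for LDHB. In reads, LDHA over LDHB was 1.16, 1.25 and 1.32 by day, and 0.924, 0.983 and 1.05 in exon-exon reads. ENO2 relative to ENO1 was 1.16-fold [1.06 to 1.26] and 1.32-fold [1.21 to 1.43], at 1.17%, 1.37% and 1.54% of enolase TPM. In these 3 of the 4 pairs the ratio was higher at day 5 than at day 3, at 1.11-fold [1.03 to 1.18], 1.06-fold [1.04 to 1.09] and 1.14-fold [1.06 to 1.23]. ALDOC relative to ALDOA was 1.33-fold [1.21 to 1.46] and 1.28-fold [1.16 to 1.41], with no further step from day 3 to day 5 (0.965 [0.887 to 1.05]). The phosphofructokinases differed from this: PFKP held 69.1%, 67.9% and 68.3%, and PFKL relative to PFKP was 1.16-fold [1.09 to 1.22] at day 3 and 0.988 [0.935 to 1.04] at day 5. On exon-exon reads the hexokinase ratio was 1.2 [1.09 to 1.33] at both times, with no step between them.

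**Figure D3:**
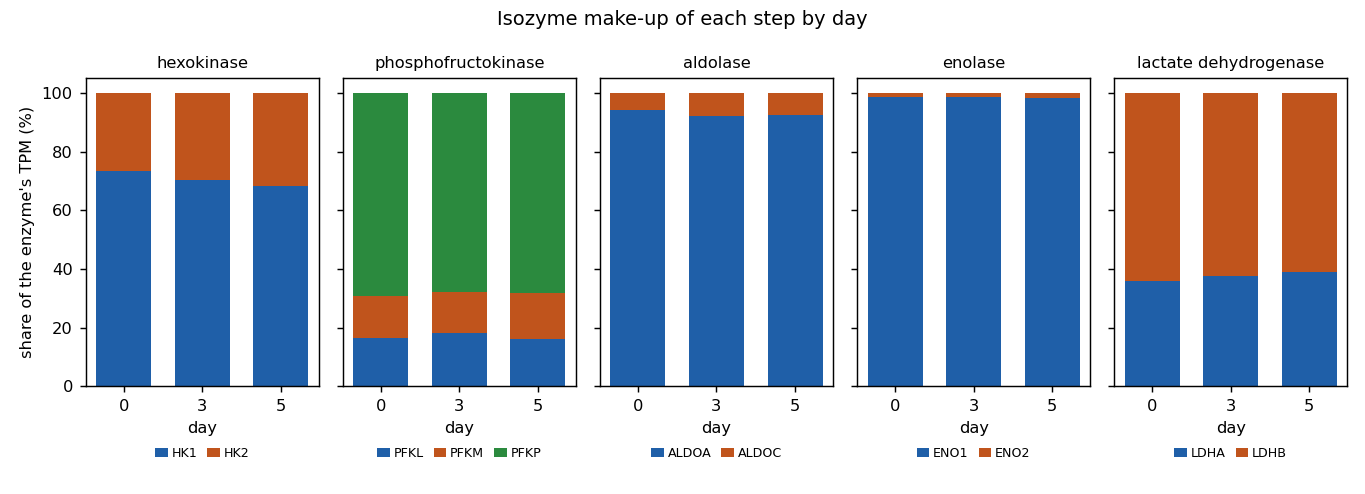
Share of each isozyme in the summed TPM of its enzyme (vertical axis, percent) at day 0, 3 and 5, 1 library per bar. HK2 goes from 26.7% to 31.7% and LDHA from 36.0% to 39%, while PFKP stays between 67.9% and 69.1%.

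The transporters and switches spanned nearly flat genes and some of the largest ratios. SLC2A1, the basal glucose transporter, was nearly flat at 363, 399 and 345 CPM, and SLC2A3, a high-affinity glucose transporter, was at 28.8, 39 and 34.3 CPM, 1.35-fold [1.22 to 1.5] at day 3. SLC16A3, which exports lactate, was at 681, 815 and 657 CPM, 1.2-fold [1.17 to 1.22] at day 3 and 0.965 [0.944 to 0.987] at day 5. SLC2A1 and SLC16A3 were thus below day 0 at day 5, but above it after correction for exon length and GC content. The bifunctional kinases that set the allosteric activator of phosphofructokinase were PFKFB3, at 89.7, 102 and 96.4 CPM, and PFKFB4, at 22.7, 33.1 and 26.3 CPM. PFKFB4 was 1.45-fold higher [1.29 to 1.64] at day 3 and 1.16-fold [1.03 to 1.30] at day 5. PDK1 (chromosome 2, 172555373 to 172608669, plus strand) encodes a kinase that shuts pyruvate dehydrogenase and so keeps pyruvate out of the mitochondrion. It stood at 13.3, 20.5 and 22.1 CPM, 1.54-fold [1.32 to 1.79] at day 3 and 1.66-fold [1.44 to 1.92] at day 5, and its day 5 level differed from its day 3 level by less than counting error (1.08 [0.952 to 1.23]). All 6 were above day 0 at day 3, apart from SLC2A1 on the authors' TPM, where it was level. At 1.2-fold 3 of 6 were higher at day 3 (SLC2A3, PFKFB4 and PDK1), beside 9.98% of all genes, and 1 of 6 at day 5 (PDK1), beside 9.43%. Lower at day 5 than at day 3 were 2 (SLC16A3 and PFKFB4), beside 10.9%.

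Among the HIF targets outside glycolysis, the mitophagy receptors parted. BNIP3 (chromosome 10, 131966455 to 131982013, minus strand) was at 70.7, 108 and 111 CPM, 1.53-fold [1.44 to 1.64] at day 3 and 1.57-fold [1.48 to 1.67] at day 5. Its paralog BNIP3L was at 55.2, 59.8 and 65.2 CPM, 1.08-fold [1.00 to 1.17] and 1.18-fold [1.10 to 1.27]. The reads of BNIP3 relative to BNIP3L were 1.42-fold [1.28 to 1.57] and 1.33-fold [1.21 to 1.47] those of day 0. The secreted factors were VEGFA, the main angiogenic growth factor, at 44.5, 64.4 and 57.4 CPM, and ADM, a vasodilator peptide, at 46.0, 49.8 and 53.5 CPM. VEGFA was 1.45-fold higher [1.33 to 1.57] at day 3 and 1.29-fold [1.19 to 1.4] at day 5, and ADM 1.16-fold [1.07 to 1.26] at day 5.

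Among the hydroxylase pairs, the balance of P4HA1 and P4HA2 differed from day 0 beyond counting error at day 5. On all reads that of EGLN1 and EGLN3 did so at neither time. EGLN1, the main oxygen sensor of HIF, was at 42.9, 47.3 and 56.1 CPM, and EGLN3, its strongly inducible relative, at 9.95, 12.7 and 10.7 CPM. EGLN1 was 1.10-fold [1.01 to 1.21] and 1.31-fold [1.2 to 1.42], whereas EGLN3 was 1.28-fold [1.07 to 1.54] and 1.08-fold [0.901 to 1.30], and the reads of EGLN1 relative to EGLN3 were 0.863 [0.703 to 1.06] and 1.21 [0.991 to 1.48] of day 0, both within counting error of 1. From day 3 to day 5 EGLN1 relative to EGLN3 was 1.4-fold [1.16 to 1.7]. On unique reads the day 5 ratio of EGLN1 to EGLN3 was 1.26 [1.03 to 1.55] of day 0. On exon-exon reads EGLN1 was just below day 0 at day 3, at a log2 ratio of -0.01. P4HA1 and P4HA2 encode alternative catalytic subunits of collagen prolyl hydroxylase, an enzyme of the endoplasmic reticulum lumen. P4HA1 was at 22.1, 27.0 and 29.4 CPM, 1.33-fold [1.19 to 1.5] at day 5. P4HA2 (chromosome 5, 132191838 to 132295315, minus strand) was at 48.6, 51.5 and 39.2 CPM, and its day 5 ratio of 0.807 [0.740 to 0.880] was the lowest of all measured members. The reads of P4HA1 relative to P4HA2 were 1.15-fold [0.989 to 1.34] those of day 0 at day 3 and 1.65-fold [1.43 to 1.91] at day 5. The 2 genes differ in GC content, at 40.0% for P4HA1 and 51.4% for P4HA2. After correction for exon length and GC content, the day 5 log2 ratio of P4HA1 went from 0.41 to 0.25. That of P4HA2 went from -0.31 to -0.25, so both were then short of 1.2-fold.

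The other targets outside glycolysis mostly had ratios modestly above 1. NDRG1, a stress-responsive gene, was at 78.0, 99.9 and 95.1 CPM, 1.28-fold [1.2 to 1.37] and 1.22-fold [1.14 to 1.30]. ANKRD37 was at 7.36, 9.55 and 10.4 CPM, 1.30-fold [1.05 to 1.61] and 1.41-fold [1.16 to 1.73], with 85.8% of reads uniquely placed. KDM3A, a histone demethylase, was at 34.7, 38.0 and 39.1 CPM, 1.13-fold [1.03 to 1.24] at day 5. ERO1A, the oxidase that drives disulfide formation in the endoplasmic reticulum, was at 187, 203 and 212 CPM, 1.09-fold [1.04 to 1.14] and 1.13-fold [1.09 to 1.18]. HILPDA, a lipid droplet protein, was at 5.42, 6.32 and 4.57 CPM with 24.2% of reads uniquely placed, so that its ratios are uncertain. MXI1, a repressor that opposes MYC, went the other way, at 16.4, 13.5 and 16.2 CPM, 0.823 [0.702 to 0.964] at day 3 and 0.988 [0.856 to 1.14] at day 5. In counts, 6 of the 14 were at least 1.2-fold higher at day 3 (BNIP3, VEGFA, EGLN3, P4HA1, NDRG1 and ANKRD37), beside 9.98% of all genes, and 1 lower (MXI1), beside 10.7%. At day 5, 6 were higher (EGLN1 in place of EGLN3), beside 9.43%, and 1 lower (P4HA2), beside 7.81%. From day 3 to day 5, 1 was higher (MXI1), beside 12.4%, and 2 lower (P4HA2 and HILPDA), beside 10.9%; on unique reads, where HILPDA had too few to count, 1 was lower. The 6 genes at day 3 became 3 on the authors' TPM, beside 5.07% of all genes, and the 6 at day 5 became 3 on exon-exon reads, beside 10.1%. VEGFA and ERO1A are also raised by the response to endoplasmic reticulum stress, and without both the count was 5 at each time.

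HIF1A (chromosome 14, 61695513 to 61748259, plus strand), the factor itself, was lower at day 3, where most of its targets were higher. It stood at 497, 429 and 489.9 CPM, 0.864 [0.840 to 0.888] at day 3 and 0.986 [0.961 to 1.01] at day 5. Of its reads 68.8% were unique, and on these the log2 ratios were -0.22 at day 3 and -0.26 at day 5, so the day 5 level near day 0 was not seen on unique reads, and day 5 over day 3 was -0.04 rather than 0.19. Of 14 other genes of the HIF machinery, 13 were measured, with median log2 ratios of 0.05 and -0.05 at day 3 and day 5. At 1.2-fold, 3 were higher and 2 lower at day 3, beside 9.98% and 10.7% of all genes, and 0 higher and 1 lower at day 5, beside 9.43% and 7.81%; the lower counts are near those shares. RBX1, ELOB and ELOC, subunits of the VHL ubiquitin ligase, were 1.28-fold [1.19 to 1.38], 1.23-fold [1.17 to 1.30] and 1.23-fold [1.14 to 1.32] at day 3. Its other subunits VHL and CUL2 were at 1.01 [0.948 to 1.08] and 0.974 [0.901 to 1.05], and after correction for exon length and GC content the log2 ratio of ELOB was 0.14. CREBBP, a coactivator of HIF, was 0.793 [0.753 to 0.836] at day 3, and ARNT, the partner of HIF1A, was 0.810 [0.726 to 0.903] at day 5. With the same correction the log2 ratio of CREBBP at day 3 went from -0.33 to -0.13, and that of ARNT at day 5 from -0.3 to -0.31.

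The day 5 ratios moved with the GC content of transcripts over all genes, and the enzymes and the HIF targets differ in GC content. Across 12583 genes with a known GC content, the Spearman correlation of GC content with the log2 ratio was -0.52 for day 5 over day 3, -0.41 for day 5 over day 0 and 0.16 for day 3 over day 0. For exon length it was 0.25, -0.1 and -0.37 in the same order, so the day 3 ratios moved more with length. Within the 17 glycolytic enzymes the correlation with exon length was -0.51 for day 3 over day 0. These are correlations across genes within pairs of libraries, given as descriptions. The glycolytic enzymes were richer in GC (median 55.5%) than the HIF targets outside glycolysis and than all genes (49.5% in both). After removal of smooth trends over exon length and GC content, the enzymes and the HIF targets had median log2 ratios of 0.24 and 0.23 at day 3, 0.09 and 0.21 at day 5, and -0.17 and -0.01 for day 5 over day 3. The enzymes lower by at least 1.2-fold between day 3 and day 5 were then 2 rather than 7. The part of GC content in the day 5 values was not tested, nor was that of exon length in the day 3 values.

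**Figure D4:**
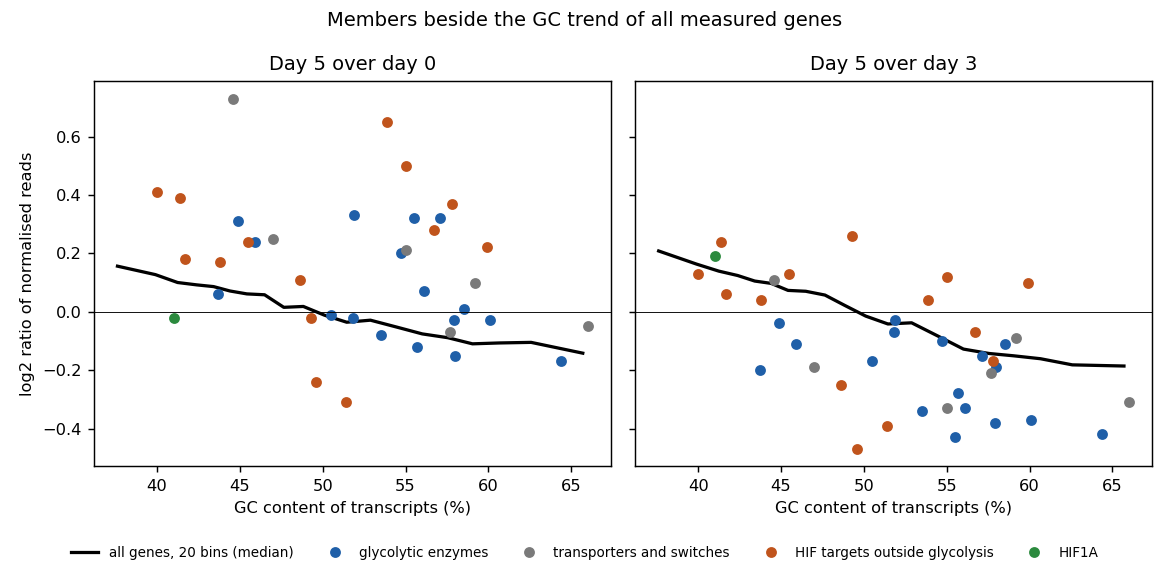
Log2 ratio of each measured member against the GC content of its transcripts for day 5 over day 0 (left) and day 5 over day 3 (right), with the median of all genes in 20 GC bins as a line. Most glycolytic enzymes lie below the line in the right panel, and PDK1, BNIP3 and ANKRD37 lie above it in the left panel.

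Reads in introns, a readout of unspliced RNA, are included in the total gene reads behind the ratios above, so these readouts are not independent. They were at least 50 on average for 23 members. Their median log2 ratio was -0.06 at day 3, beside -0.29 for 5666 genes with as many intron reads, and 0.03 at day 5, beside -0.03. At day 3, 1 of the 23 had an interval above 1 (SLC16A3), beside 2.52% of all genes, and 4 had an interval below 1 (GPI, PFKP, PKM and HIF1A), beside 36.3%. The median intron ratio of the members at day 3 was thus above that of all genes, with GPI, PFKP, PKM, PFKFB3 and HIF1A below it. BNIP3 had 101, 88 and 151 intron reads, a log2 ratio of -0.18 [-0.61 to 0.24] at day 3, where all its reads gave 0.62. GAPDH had 318, 320 and 395, a log2 ratio of 0.03 [-0.20 to 0.25] at day 3, where all its reads gave 0.35. HIF1A had 282, 182 and 403 intron reads, and its day 3 log2 ratio of -0.61 [-0.89 to -0.34] was lower than the -0.21 of all its reads. ERO1A had 214, 173 and 134 intron reads, a log2 ratio of -0.95 [-1.28 to -0.64] at day 5, where all its reads gave 0.18. The counting is not stated to use strand, so intron reads can also come from genes on the opposite strand.

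Genes around the set give it context. Of 30 other hypoxia-induced genes, 28 were measured, with median log2 ratios of 0.20 and 0.24 at day 3 and day 5. At 1.2-fold, 7 were higher and 0 lower at day 3, beside 9.98% and 10.7% of all genes, and 11 higher and 0 lower at day 5, beside 9.43% and 7.81%. The largest were DDIT4, an inhibitor of mTOR signalling (2.07-fold [1.92 to 2.24] and 1.49-fold [1.37 to 1.61], with 60.3% of reads uniquely placed), MIR210HG, the host of a hypoxia-induced microRNA (36, 76 and 54 reads, 2.12-fold [1.42 to 3.27] at day 3), ANGPTL4 (1.83-fold [1.41 to 2.42] and 1.65-fold [1.27 to 2.17]) and VLDLR (1.54-fold [1.33 to 1.79] and 1.39-fold [1.21 to 1.61]). DDIT4 and VLDLR are known targets of the integrated stress response as well.

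The neighbouring routes of carbon had few genes past 1.2-fold. The 7 genes of the pentose phosphate pathway had a median log2 ratio of 0.18 at day 3 and -0.07 at day 5, and at day 3, 2 were higher by 1.2-fold, RPIA (1.30-fold [1.19 to 1.43]) and TALDO1 (1.22-fold [1.17 to 1.27]). Of 14 measured genes of pyruvate and lactate handling, 1 was higher and 1 lower at day 3 and 1 was higher at day 5, near or below the shares of all genes. They were MPC1 (1.24-fold [1.09 to 1.41] at day 3) and MPC2 (1.33-fold [1.2 to 1.46] at day 5), which form the mitochondrial pyruvate carrier, and SLC16A7, a lactate importer (0.810 [0.706 to 0.928] at day 3). After correction for exon length and GC content these log2 ratios were 0.18, 0.37 and -0.1, the last from -0.3. Of 11 measured genes of gluconeogenesis and glycogen, 2 were higher and 1 lower at day 3, beside 9.98% and 10.7% of all genes. PCK2, a mitochondrial enzyme also raised by the integrated stress response, was 1.42-fold [1.29 to 1.56] at day 3 and 0.919 [0.831 to 1.02] at day 5. PGM1 was 1.28-fold [1.21 to 1.36] at day 3. FBP2 was 0.596 [0.440 to 0.798] at day 3, but 124, 74 and 120 of its 126, 74 and 125 reads lay in introns. Its TPM was 0.31, 0.0 and 0.633, so this ratio describes intron reads rather than spliced FBP2 mRNA.

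The isozymes of glycolysis outside the set were scarce. Of 17, 5 averaged 50 reads or more. ENO3, the muscle enolase, was lower, at 0.707 [0.577 to 0.862] at day 3 and 0.787 [0.654 to 0.944] at day 5, against the direction of ENO2. PFKFB2 and TIGAR were 1.27-fold [1.09 to 1.47] and 1.24-fold [1.08 to 1.42] at day 5, and ADPGK and BPGM were within their intervals of day 0 at both times.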

How the data were processed

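Total RNA from cells harvested at each of the 3 times was made into libraries with a SMARTer mRNA kit, per the labels' protocols. The deposited table of each library holds read counts per gene (total, unique, exon, exon-exon and intron reads) and the authors' TPM, per the file headers. No aligner or read counter is named in those sources, and the counting is not stated to use strand. The submitters' processing notes name mm10, a mouse build, but the gene identifiers are human: 57980 of 58243 are in GENCODE 29, and 56577 of these (97.6%) have its GRCh38 coordinates, so GRCh38 is given. The 3 sample columns of a table of the whole series were not used, nor were the RPKM columns.

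Counts deposited by the authors were scaled by TMM (factors 1.01, 0.968 and 1.02; edgeR 4.0.16, R 4.3.3). A prior count of 0.5 was added for log2 ratios, whose 95% Clopper-Pearson limits condition on the summed reads of both libraries and cover counting error only. Of the deposited reads, 87.6% to 89.2% were uniquely placed. Trends over exon length and GC content (GENCODE 29 transcripts) were fitted by lowess (span 0.3, 3 rounds; statsmodels 0.14.6, Python 3.11.15). The steps were tested on simulated data. The members and lists were chosen with earlier results of these data known. All 39 members are named, and of each other list up to 4 genes with the largest ratios past 1.2-fold, plus other isozymes that averaged 50 reads or more.

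Alternatives tried were plain library totals, size factors from DESeq2 1.42.0, scaling that leaves out mitochondrial genes and the 20 most abundant, the authors' TPM plus 0.5, counts of unique, exon or exon-exon reads only, a prior of 5, filters at 10 or 200 reads and no filter, the trends removed, genes with at least 90% unique reads, the set without VEGFA and ERO1A, and limits that exclude 1.2-fold. Some results on genes of the other lists are not reported here.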

Additional observations from a re-analysis of the deposited data

How the results depend on the processing

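No paired analysis was possible because there was 1 library per day, and no replicate could be left out. Of 168 recomputed medians and counts, 147 stayed close to the reported ones. A median was called close if it moved by no more than the counting error typical of its genes. A count was called close if it stayed within 1.5-fold. All glycolytic enzymes averaged well over 200 reads, so the read filters could not change their values, and the tally includes such settings. For day 3 over day 0, the median log2 ratio of the glycolytic enzymes (0.30) was 0.24 on library totals without TMM, on exon-exon reads and with the trends removed, 0.34 on unique reads and 0.17 on the authors' TPM, and stayed above that of all genes in each. Their count of higher genes was 3 on the authors' TPM, as was that of the HIF targets, which was also 3 with an interval excluding 1.2-fold. For day 5 over day 0, the enzymes' median was 0.09 with the trends removed, and the counts with an interval excluding 1.2-fold were 1 enzyme and 2 HIF targets, the latter 3 on exon-exon reads. For day 5 over day 3, the enzymes' median (-0.19) was -0.12 on library totals, -0.14 on exon-exon reads and -0.09 on the authors' TPM, where, as with the trends removed, 2 enzymes were counted lower. The HIF targets counted lower were 1 on unique reads, with a minimum of 200 reads, with at least 90% unique reads and with an interval excluding 1.2-fold. Plain library totals turned the split of all genes between day 3 and day 5 from 12.4% higher and 10.9% lower to 19.7% and 5.64%, and the authors' TPM to 23.1% and 5.66%. Shares on the authors' TPM used the 1.2-fold cut-off alone, with no interval, so they follow a looser rule than the others. The cause of these shifts was not tested.

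Of 1020 recomputed log2 ratios of members, 16 changed sign where the reported interval excluded 0; others whose interval held 0, such as those of PFKM and PFKP at day 3, changed sign too. With the trends removed, the day 5 over day 0 values became 0.02 for PFKL, 0.09 for ALDOA, 0.03 for GAPDH, -0.06 for LDHB, 0.02 for SLC2A1 and 0.11 for SLC16A3, and the day 5 over day 3 values 0.03 for PGAM1, 0.04 for PFKFB3 and -0.11 for ERO1A. On exon-exon reads EGLN1 was -0.01 at day 3, ALDOA 0.03 at day 5, and PGK1 0.01 for day 5 over day 3. PGK1 was also 0.03 on library totals and 0.08 on the authors' TPM, where PGAM1 was 0.02, and HIF1A was -0.04 on unique reads. Depth limits HILPDA, ANKRD37 and EGLN3, with 117 to 282 reads per library, whose day 3 intervals all span 1.2-fold.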
